A study of Capra hircus with 9 samples.

Results

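The mitochondrial ribosomal protein genes, whose symbols are MRPL or MRPS followed by a number, made up 77 of the 23499 genes in the deposited expression table of goat mammary gland. They were taken by symbol alone, without regard to their values, and comprise 49 MRPL and 28 MRPS symbols on 26 chromosomes and 1 unplaced scaffold. The table holds 9 libraries of mammary tissue from 9 Laoshan dairy goats, 3 in each stage. The LL goats were in late lactation at day 240 postpartum, the DP goats in the dry period at day 300 postpartum, and the LG goats in late gestation at day 140 after mating. All goats were in the third parity, between 3 years 8 months and 4 years 1 month old, and were sampled after slaughter. No treatment or genetic change was part of the design, and each library is a different goat, so stages were compared between animals.

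Mitochondria carry a ribosome of their own, which translates the few proteins encoded by mitochondrial DNA, all of them subunits of the respiratory chain and ATP synthase. Its ribosomal RNAs come from mitochondrial DNA, whereas its proteins are encoded in the nucleus, made on cytosolic ribosomes and imported. Some of these proteins descend from bacterial ribosomal proteins and others were added during the evolution of mitochondria. In the mammary gland, milk synthesis places a high demand on ATP, and the epithelium is rebuilt between lactations. The symbols follow an older naming. The products of MRPS30 and MRPS18A sit in the large subunit despite their S, and the product of MRPS36 is now assigned to the alpha-ketoglutarate dehydrogenase complex rather than to the ribosome.

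A member of the family also served the study as a measuring standard. MRPL39, a protein beside the exit tunnel of the large subunit, was used with GAPDH as reference gene for RT-qPCR. The study's text describes RT-qPCR results for cultured mammary epithelial cells after interference with or overexpression of the gene PDGFRB. It describes none across the tissue stages compared here. The 2 primers designed for MRPL39, each of 20 bases, are shown because they fix the gene against which other transcripts were measured. They are given 5′ to 3′ in lower case, with no position marked.
MRPL39 5′ primer: agctgtcactaactccccga
MRPL39 3′ primer: gacagtgccagggtcagttt
The table places MRPL39 at chr1:9238164-9253142 on the + strand. Its coordinates, and all others below, are those of the table, which names no genome build.

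The values were read as FPKM, fragments scaled to transcript length and library size, although the table names no unit. Library sums of FPKM were 601250 to 768157 in the DP and LG libraries and 940676 to 1.16e+06 in LL. The 10 highest genes held 80.6% to 86.0% of that sum in LL and 53.6% to 58.5% in DP and LG. Each library was therefore divided by a median-ratio scaling factor (0.498 to 0.605 for LL, 1.44 to 1.53 for DP, 1.198 to 1.31 for LG), and the result is called scaled FPKM here. Without that division, the median log2 difference of all genes was 1.09 for DP against LL, 0.93 for LG against LL and -0.18 for LG against DP. Where 3 values are given for the 3 comparisons below, they stand in that order. All 6 luminal epithelial markers examined (EPCAM, KRT8, KRT18, KRT19, CDH1, ELF5) were above 0 in the 9 libraries, and their summed scaled FPKM was 819 to 1106 for LL, 269 to 522 for DP and 733 to 891 for LG. ELF5, a transcription factor of secretory cells, made up most of that difference, and the 5 other markers summed to 343 to 431 for LL, 243 to 478 for DP and 324 to 393 for LG, which overlapped. The summed level of 5 fibroblast markers (COL1A1, COL1A2, COL3A1, DCN, PDGFRA) was 181 to 277 for LL, 463 to 2164 for DP and 489 to 906 for LG. These markers did not move as one in LG. At an adjusted p under 0.05 (limma), COL1A1 and COL3A1 were higher in LG than in LL, PDGFRA was lower and 2 did not pass. Against DP, DCN and PDGFRA were lower in LG and 3 did not pass. In bulk tissue, fewer cells of a type and less RNA per cell cannot be told apart.

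Members were expressed at moderate levels. Over the 9 libraries, the median member stood at 8.62 scaled FPKM, the 71.3 percentile of the 14701 genes tested, against 4.6 for the median of all genes and 643 for the median of 70 cytosolic ribosomal protein genes, RPL or RPS followed by a number. FPKM is a level per transcript length, so these levels can be set side by side. By the mean over the 9 libraries, the highest members were MRPL52, MRPS23, MRPL17, MRPL39 and MRPL23. MRPL17, a conserved protein near the exit tunnel, had scaled FPKM of 51.9, 39.0 and 31.2 for LL, 27.3, 20.0 and 31.3 for DP and 35.9, 23.1 and 39.2 for LG, so its stages overlapped. The lowest were MRPS31, at 2.19 to 3.61 scaled FPKM, MRPL57 and MRPL41. MRPL57, also known as MRP63, had deposited FPKM of 0.33, 0.66 and 0.43 for LL, 0.18, 0.46 and 0.14 for DP and 1.16, 1.15 and 0.75 for LG. MRPL41 was listed at 0 in 6 of the 9 libraries and at no more than 0.08 FPKM in the others. It was the only member below the filter of at least 0.5 FPKM in 3 libraries, which left 76 members to test. The table lists both genes as short, MRPL57 at chr12:51160795-51161452 and MRPL41 at chr11:105784369-105785017.

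Between animals of the same stage, members varied about as much as other genes. The SD of log2 values within a stage had a median of 0.18 over members and 0.20 over all genes tested. MRPL22, a conserved protein lining the exit tunnel, was the most even, with a within-stage SD of 0.049. MRPL22 measured 5.69, 5.93 and 6.01 scaled FPKM for LL, 6.03, 6.22 and 6.09 for DP and 6.91, 6.32 and 6.16 for LG. Neither DP nor LG overlapped LL, but the differences did not pass the test (log2 difference 0.12 in LG against LL, adjusted p = 0.358). The most variable members were MRPS16 (SD 0.61) and MRPL48 (SD 0.58), both of which share their values with a neighbouring gene as described further on.

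**Figure D1:**
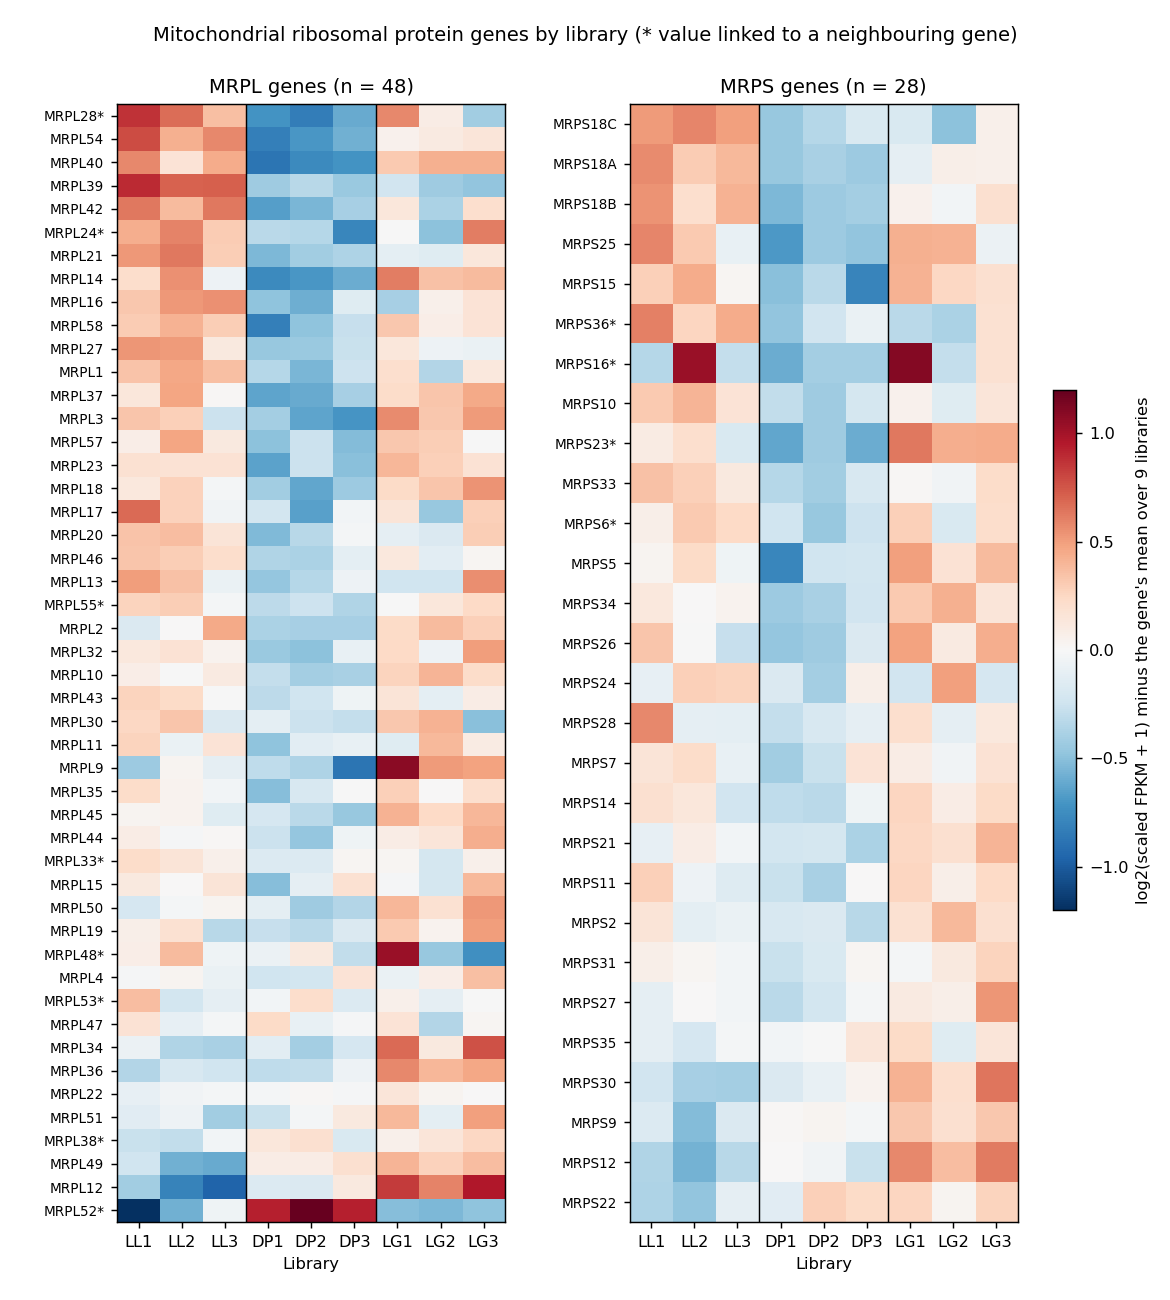
Each row is a member tested and each column a library, with the colour giving log2(scaled FPKM + 1) minus the mean of the gene over the 9 libraries. Rows are ordered by DP against LL, the colour scale ends at 1.2 in either direction, and an asterisk marks the 12 members whose values are linked to a neighbouring gene. Most rows are blue in the 3 DP columns, MRPL12 and MRPS12 are lowest in LL, and MRPL52 alone is strongly red in DP.

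Most members were lower in the dry period than in late lactation after scaling, whereas without scaling the median member was 0.83 higher on the log2 scale, beside 1.09 for all genes. Of 76 members, 62 had a log2 difference below 0 and 14 above 0 in DP against LL. At an adjusted p under 0.05, 36 fell and 4 rose, and 36 did not pass, where over all genes tested 28.6% fell and 28.2% rose. When a change of at least 2-fold (1 on the log2 scale) was also asked for, 5 members fell (MRPL28, MRPL54, MRPL40, MRPL39 and MRPL42) and MRPL52 rose, beside 8.79% of all genes called lower and 13.8% called higher. The median log2 difference was -0.39 over members, with quartiles of -0.70 and -0.22, and 0.00 over all genes. Differences are on the log2(scaled FPKM + 1) scale, which understates changes of low genes, and adjusted p-values are from limma with Benjamini-Hochberg adjustment over all genes tested. In DP against LL, 3 of 6 luminal markers fell (ELF5, EPCAM and CDH1) and 3 did not pass, all 5 fibroblast markers rose, and leukocyte markers summed to 48.3 to 99.1 scaled FPKM in DP against 19.9 to 27.3 in LL. Their part in these differences was not tested.

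The largest fall among members with values of their own was that of MRPL54, a large-subunit protein without a bacterial counterpart, at chr7:90348993-90352086. MRPL54 had scaled FPKM of 13.98, 10.7 and 12.02 for LL, 3.95, 4.39 and 4.85 for DP and 8.07, 8.43 and 8.65 for LG. The 3 stages did not overlap, with LL highest and DP lowest, and DP was below LL by a log2 difference of -1.29 (SE 0.13, adjusted p = 3.94e-05). MRPL40, a protein of the central protuberance, which faces the small subunit, measured 26.4, 19.7 and 24.2 for LL, 9.005, 9.82 and 10.2 for DP and 21.9, 23.8 and 23.7 for LG. LL and LG overlapped and DP lay below both, by -1.18 against LL (SE 0.14, adjusted p = 0.000108). MRPL42, another protein added in mitochondria, went from 15.6 ± 1.66 scaled FPKM (SD, n = 3) in LL to 6.82 ± 0.728 in DP, a log2 difference of -1.09 (adjusted p = 0.000671). MRPL28 fell by 1.35 on the log2 scale, but its values differ from those of TMEM8A by small fixed amounts only. MRPL21, MRPL14, the linked MRPL24 and MRPL16 followed with differences of -0.92, -0.92, -0.93 and -0.87, all passing the test without reaching 2-fold. The number of members called lower rose from 5 to 9 when library LL3 was left out. Under quantile normalization MRPL40 (-0.92), MRPL42 (-0.95) and MRPL39 (-0.70) still passed the test but no longer reached 2-fold. Without scaling, MRPL54 did not pass (-0.05, adjusted p = 0.722), and the differences of MRPL40 and MRPL42 were above 0.

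The 4 members that rose in DP were of unlike kinds. MRPL52 rose by 1.79 on the log2 scale (adjusted p = 0.000829), but it is linked to MMP14, a membrane-bound collagen-degrading protease, and is described with the linked members. MRPL12, the stalk protein that draws translation factors to the ribosome, rose by 0.65 (adjusted p = 0.0101). MRPL49 rose by 0.59 (adjusted p = 0.00394), from 6.93, 5.26 and 5.14 scaled FPKM in LL to 8.93, 8.91 and 9.66 in DP. MRPS22, a small-subunit protein added in mitochondria, rose by 0.45 (adjusted p = 0.0331), with LL at 4.58, 4.19 and 5.70 and DP at 5.56, 7.81 and 7.48, so that 1 DP library lay within the LL range. The MRPS22 difference passed the test in only 2 of the 6 fits that left out 1 LL or DP library, and was 0.35 without LL2 (adjusted p = 0.13).

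**Figure D2:**
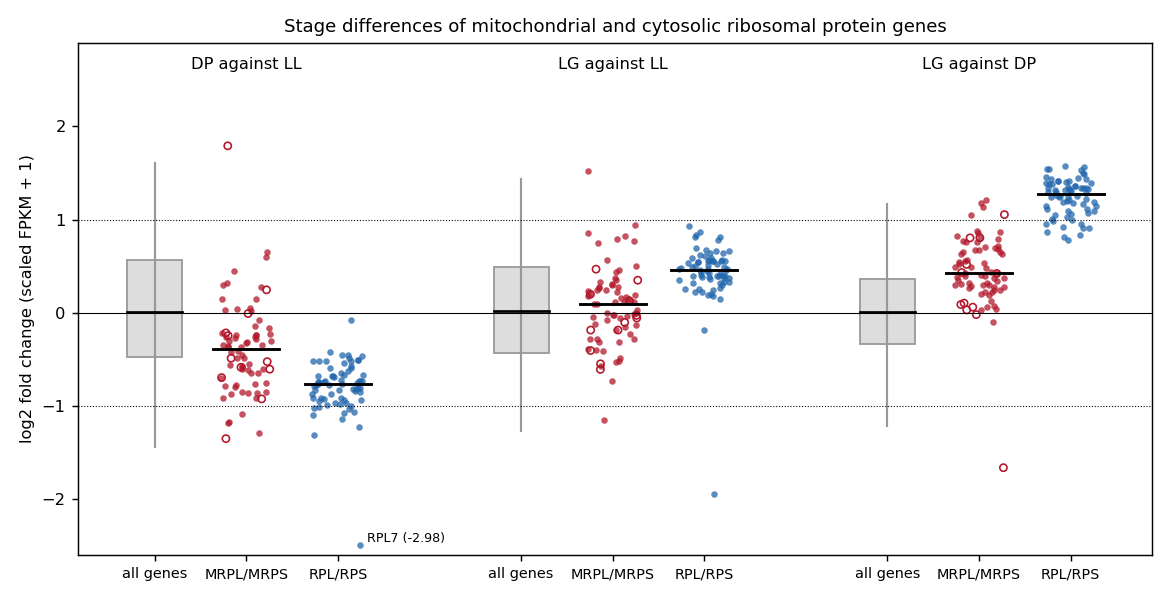
Log2 fold changes on the scaled FPKM + 1 scale in the 3 stage comparisons. Grey boxes give the quartiles and lines the 5th to 95th percentiles of all 14701 genes tested, red points are the 76 members and blue points the 70 cytosolic ribosomal protein genes, open circles are linked members, black bars are medians and dotted lines mark 1 and -1. Members had medians of -0.39, 0.09 and 0.42 and cytosolic genes -0.77, 0.46 and 1.28 from left to right, but under quantile normalization the cytosolic median in DP against LL was 0.23. RPL7 is drawn at the edge of the axis with its value.

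Late gestation against late lactation gave a mixed picture. In LG against LL, 12 members rose and 8 fell at an adjusted p under 0.05, and 56 did not pass, beside 25.6% of all genes that rose and 24.6% that fell. MRPL12 alone was called higher and MRPL39 alone lower at the 2-fold rule, where 10.7% and 6.61% of all genes were called. The median over members was 0.09 and that over all genes 0.02. The summed level of 6 proliferation markers (MKI67, TOP2A, CCNB1, CDK1, BUB1, AURKB) was 17.4 to 35.0 scaled FPKM in LG against 3.87 to 5.35 in LL and 4.10 to 6.22 in DP, and its part in the results on LG was not tested.

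MRPL12 had the largest rise, at chr19:50485988-50490116. It measured 8.44, 6.25 and 5.5 scaled FPKM for LL, 10.3, 10.2 and 12.7 for DP and 21.5, 18.1 and 23.5 for LG. The stages did not overlap, and LG was above LL by 1.52 on the log2 scale (SE 0.17, adjusted p = 0.00012) and above DP by 0.87 (adjusted p = 0.00422). MRPS12, the small-subunit protein at the decoding centre that tunes the accuracy of codon reading, showed the same order. Its scaled FPKM was 3.70, 3.07 and 3.78 for LL, 5.05, 4.84 and 3.995 for DP and 7.99, 6.80 and 8.28 for LG, again without overlap, and LG was above LL by 0.94 (SE 0.13, adjusted p = 0.000339). MRPL9 (0.86), MRPL49 (0.82), MRPL34 (0.79), MRPS30 (0.77), MRPL36 (0.74), MRPS9 (0.57), MRPS22 (0.51), the linked MRPS23 (0.47), MRPL50 (0.44) and MRPL45 (0.37) also rose. MRPL34 and MRPL36 are small conserved proteins of the large subunit, and MRPL36 rose from 5.02, 5.69 and 5.48 scaled FPKM in LL to 10.46, 9.12 and 9.60 in LG while DP was at 5.20, 5.27 and 6.35. MRPS12 passed the 2-fold rule when LG2 was left out (1.015) and with a pseudocount of 0.1 (1.11).

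The members that fell in LG against LL besides MRPL39 were MRPS18C (-0.74), the linked MRPS36 (-0.61), MRPL42 (-0.57), MRPL21 (-0.52), MRPL16 (-0.52), MRPL54 (-0.49) and MRPS18A (-0.41). All 7 were also lower in DP than in LL at an adjusted p under 0.05. Both comparisons use the same 3 LL libraries, so they are not independent.

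Late gestation against the dry period ran almost wholly upward. In LG against DP, 73 of 76 members had a difference above 0, 36 rose and MRPL52 fell at an adjusted p under 0.05, and 39 did not pass, where 18.4% of all genes rose and 16.4% fell. The median was 0.42 over members and 0.01 over all genes. At the 2-fold rule MRPL9 (1.21), MRPL40 (1.18), MRPL14 (1.14), MRPS23 (1.05) and MRPL3 (1.05) were called higher and MRPL52 (-1.66) lower, beside 6.37% and 6.88% of all genes. MRPS23 and MRPL52 are linked members, whose values follow those of CUEDC1 and MMP14. MRPL9, a conserved protein at the base of the L1 stalk, had scaled FPKM of 14.9, 14.1 and 9.63 in DP and 40.3, 26.8 and 26.4 in LG, with a log2 difference of 1.21 (SE 0.22, adjusted p = 0.00289). MRPL14, a conserved protein at the face that meets the small subunit, had 6.21, 6.58 and 7.13 in DP and 17.8, 14.7 and 15.0 in LG (adjusted p = 0.00088). MRPL3, a conserved protein near the catalytic centre, had 15.4, 13.05 and 12.4 in DP and 31.3, 26.3 and 30.05 in LG (adjusted p = 0.0021). For these 3 genes every LG library lay above every DP library. MRPL3 came to 0.99 without DP3, and MRPS23 to 0.99 without LG1.

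Cytosolic ribosomal protein genes served as reference. After scaling, the medians of both families had the same sign in each comparison, whereas under quantile normalization they differed in DP against LL (-0.26 for members and 0.23 for cytosolic genes). Cytosolic ribosomal protein genes have many near-identical copies, and how reads shared with copies were counted is not given in the sources used here. The cytosolic genes had medians of -0.77, 0.46 and 1.28 in the 3 comparisons. Of 70 cytosolic genes, 65 fell and none rose in DP against LL at an adjusted p under 0.05, 35 rose and 1 fell in LG against LL, and 70 rose in LG against DP, 59 of them by 2-fold or more. No member-to-member test of the difference between the families was made, since genes are not replicates. Ordered by their stage means, 68 of 70 cytosolic genes ran LG, LL, DP from high to low. The members divided over 3 orders, with 32 running LL, LG, DP, 29 running LG, LL, DP and 12 running LG, DP, LL, and 1 in each of the others. The range between the highest and lowest stage mean was 0.65 on the log2 scale for the median member, 1.29 for the median cytosolic gene and 0.71 over all genes tested.

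Summed over genes, members amounted to 1.85% to 2.21% of the cytosolic sum for LL, 2.39% to 2.84% for DP and 1.34% to 1.76% for LG, and the 3 stages did not overlap. With linked genes left out of both sums, the shares were 1.61% to 1.97% for LL, 1.87% to 2.33% for DP and 1.16% to 1.52% for LG, and LL and DP overlapped. These shares do not depend on scaling by a factor per library. The difference of the medians does depend on the normalization. Members stood 0.38 above cytosolic genes in DP against LL and 0.85 below them in LG against DP with scaling factors, but -0.49 and 0.09 with quantile normalization, which turned both directions, whereas LG against LL gave -0.37 and -0.42.

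**Figure D3:**
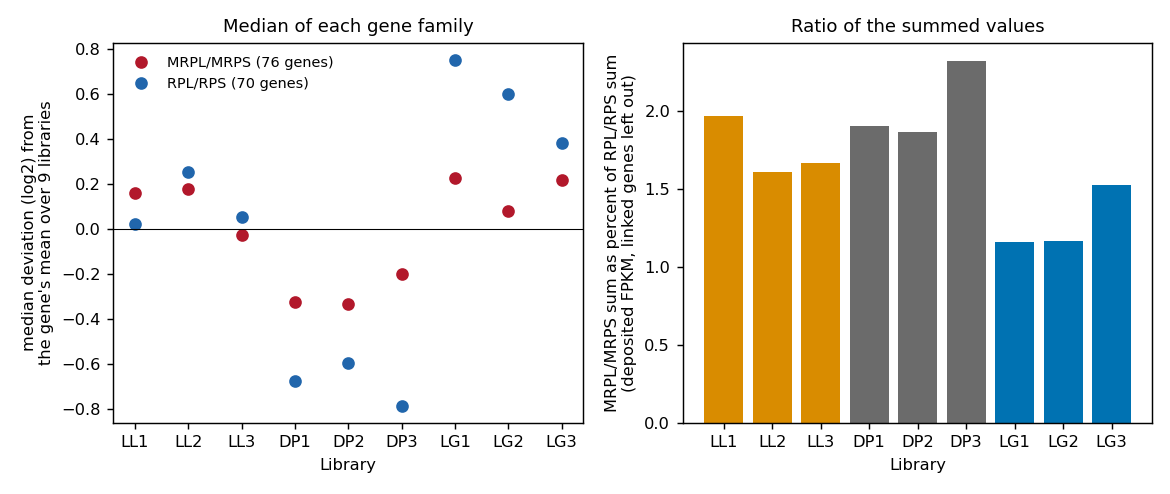
Left, the median over genes of log2(scaled FPKM + 1) minus the mean of each gene over 9 libraries, for the 76 members (red) and 70 cytosolic genes (blue) in each library. Right, the summed deposited FPKM of members as a percent of the cytosolic sum, linked genes left out, with colours for the stages. Members lay between -0.33 and 0.23 and cytosolic genes between -0.78 and 0.75, and the DP libraries are the lowest of both families on the left.

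Medians of the large and small subunit were close in LG against DP, at 0.43 and 0.42. Among 50 members of the large subunit, 25 fell and 3 rose in DP against LL with a median of -0.44. Among 25 of the small subunit, 10 fell and 1 rose with a median of -0.33. Over all genes tested, 28.6% fell and 28.2% rose. With linked members left out, these medians were -0.47 for the large and -0.29 for the small subunit. The 5 members called lower in DP against LL were all of the large subunit. In LG against LL the medians were -0.005 for the large and 0.17 for the small subunit. The 45 members listed with bacterial counterparts and the 30 counted as added in mitochondria had medians of -0.42 and -0.37 in DP against LL. In LG against DP these were 0.42 and 0.46. The 30 include MRPS18A and MRPS18B, although both are related to bacterial S18. The difference between such groups was not tested.

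The 4 proteins of the stalk base and stalk, the site where translation factors dock, did not move as one. MRPL10, which anchors the stalk, fell in DP (-0.42, adjusted p = 0.011) and rose in LG against DP (0.66, adjusted p = 0.00206), and it was even within stages at 10.3, 9.76 and 10.6 scaled FPKM for LL, 7.85, 7.11 and 7.25 for DP and 11.9, 13.3 and 11.5 for LG. MRPL11, its partner at the stalk base, did not pass in any comparison (-0.35, -0.00 and 0.35). MRPL12 rose in both steps, as given above. MRPL53, whose values are linked to CCDC142, had the smallest range of stage means of all members, 0.03.

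Around the exit tunnel, where the new chain leaves the ribosome towards the inner membrane, 3 of 8 members fell in DP against LL (MRPL23, MRPL39 and the linked MRPL24) and none rose. Over all genes tested, 28.6% fell and 28.2% rose, and of all 76 members 36 fell. MRPL23, a conserved protein of the tunnel rim, had 30.3, 30.1 and 30.2 scaled FPKM for LL, 16.6, 22.1 and 18.5 for DP and 35.3, 32.7 and 30.2 for LG. It was lower in DP than in LL by -0.64 (adjusted p = 0.00409). MRPL45, which tethers the ribosome to the inner membrane, had differences of -0.30 (adjusted p = 0.0599), 0.37 (adjusted p = 0.0302) and 0.67 (adjusted p = 0.00276) in the 3 comparisons. MRPL44, a protein related to RNase III, did not pass in DP against LL (-0.29, adjusted p = 0.104) and rose in LG against DP (0.48, adjusted p = 0.0247). Of 6 fits that left out 1 library, MRPL45 missed the threshold in 5 in LG against LL (adjusted p up to 0.111) and MRPL44 in 3 in LG against DP (adjusted p up to 0.0913). MRPL47, the counterpart of bacterial L29, stayed within 0.10 between its stage means and passed in no comparison. OXA1L, the insertase at the membrane that receives the chain, is no member but fell in DP (-0.93, adjusted p = 0.00187) and rose in LG against DP (0.91, adjusted p = 0.00384).

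In the central protuberance, 7 of 9 members fell in DP against LL and none rose, with a median of -0.62. Over all genes tested, 28.6% fell and 28.2% rose, and of all 76 members 36 fell. The 7 were MRPL40 (-1.18), MRPL58 (-0.86), MRPL27 (-0.77), MRPL57 (-0.65), MRPL18 (-0.62), MRPL46 (-0.57) and MRPL55 (-0.49). These falls depend on scaling. Without it, the differences of MRPL40, MRPL58, MRPL18 and MRPL55 were above 0, and MRPL57 did not pass (-0.23, adjusted p = 0.215). The deposited means of MRPL27 and MRPL46 were also higher in DP than in LL. MRPL58, also known as ICT1, is a peptidyl-tRNA hydrolase that rescues stalled ribosomes and became part of the large subunit. It measured 18.3, 19.8 and 18.1 scaled FPKM for LL, 7.83, 10.2 and 11.9 for DP and 18.6, 15.5 and 16.5 for LG, with DP below the other stages. MRPL38 (0.25, adjusted p = 0.162) and MRPL48 (-0.22, adjusted p = 0.645) did not pass. MRPL38, MRPL48 and MRPL55 of this group are linked. MRPL57 had low values, and with a pseudocount of 0.1 its difference grew from -0.65 to -1.82. None of the 9 passed in LG against LL, and 5 rose in LG against DP, where 18.4% of all genes and 36 of 76 members rose. MRPL32, a large-subunit protein that matures by cleavage with the AFG3L2 and SPG7 protease, fell in DP (-0.45, adjusted p = 0.0384) and rose in LG against DP (0.57, adjusted p = 0.0245), but it missed the threshold in 5 of 6 and 4 of 6 fits that left out 1 library (adjusted p up to 0.121 and 0.0827).

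At the decoding site and the mRNA channel, MRPS5 alone of 4 members fell in DP against LL, MRPS12 alone rose in LG against LL, and MRPS2, MRPS5 and MRPS12 rose in LG against DP, with medians of -0.27, 0.27 and 0.56. Over all genes tested, 28.6% fell in DP against LL, 25.6% rose in LG against LL and 18.4% rose in LG against DP. Of all 76 members, 36 fell, 12 rose and 36 rose in the same comparisons. The 3 paralogs related to bacterial S18 occupy different places, MRPS18A in the large subunit and MRPS18B and MRPS18C in the small. All 3 fell in DP by nearly equal amounts, -0.85 for MRPS18A (adjusted p = 0.000367), -0.85 for MRPS18B (adjusted p = 0.000592) and -0.86 for MRPS18C (adjusted p = 0.00125). They parted in LG, where MRPS18B rose over DP by 0.53 (adjusted p = 0.0123) and MRPS18A by 0.44 (adjusted p = 0.0214), whereas MRPS18C did not pass (0.13, adjusted p = 0.556). MRPS18C measured 10.6, 11.3 and 10.5 scaled FPKM for LL, 4.94, 5.45 and 6.18 for DP and 6.20, 4.82 and 7.53 for LG, so DP and LG overlapped below LL. MRPS18A missed the threshold in LG against DP in 4 of 6 fits without 1 library (adjusted p up to 0.0633). The difference between the paralogs was not tested.

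Of the other members of interest, MRPS30, a large-subunit protein despite its name, rose in LG against LL (0.77, adjusted p = 0.00164), from 4.78, 4.16 and 4.11 scaled FPKM to 8.07, 6.81 and 9.64. MRPS28, known for its tie to human mitochondrial disease like MRPS22, passed in no comparison (-0.31, -0.04 and 0.27). MRPL37, a large-subunit protein added in mitochondria, fell in DP (-0.75, adjusted p = 0.00252) and rose in LG against DP (0.88, adjusted p = 0.00203). MRPL18 rose by 0.86 in LG against DP (adjusted p = 0.00124). MRPS36, which is not counted as ribosomal now, fell in both DP (-0.70, adjusted p = 0.00958) and LG (-0.61, adjusted p = 0.0197) against LL, with values linked to CDK7. In all, 53 of the 76 members passed in at least 1 comparison, beside 74.9% of all genes tested, and 23 in none, the latter including MRPL4, MRPL15, MRPL35, MRPS7, MRPS11, MRPS14, MRPS27 and MRPS35.

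MRPL39 stood apart on the deposited scale. Its deposited FPKM was 25.07, 24.37 and 26.84 for LL, 29.76, 30.04 and 27.72 for DP and 26.91, 24.05 and 24.81 for LG. The highest library exceeded the lowest 1.25-fold, the smallest such ratio of the 76 members, whose median ratio was 3.25. As deposited, 62 members ran LG, DP, LL from high to low and 10 ran DP, LG, LL, so 94.7% of members were lowest in LL, beside 88.2% of all genes tested. After scaling, MRPL39 had 50.4, 44.1 and 44.3 for LL, 19.5, 20.8 and 19.3 for DP and 22.5, 19.5 and 18.9 for LG, a ratio of 2.67 between the highest and lowest library that ranked 61 of 76 from the smallest. It was then lower in DP (-1.18, SE 0.13, adjusted p = 7.98e-05) and in LG (-1.15, SE 0.13, adjusted p = 0.000127) than in LL, while DP and LG overlapped (0.03, adjusted p = 0.897). The 12 last rows of the table, where MRPL39 stands, had medians of -1.07 and -1.04 in these 2 comparisons, so the differences of MRPL39 were close to those of its neighbours in the table, and whether these rows are on the scale of the others was not tested. Without scaling the differences from LL were 0.19 in DP and -0.01 in LG. GAPDH, the other reference gene, had a ratio of 1.18 as deposited.

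**Figure D4:**
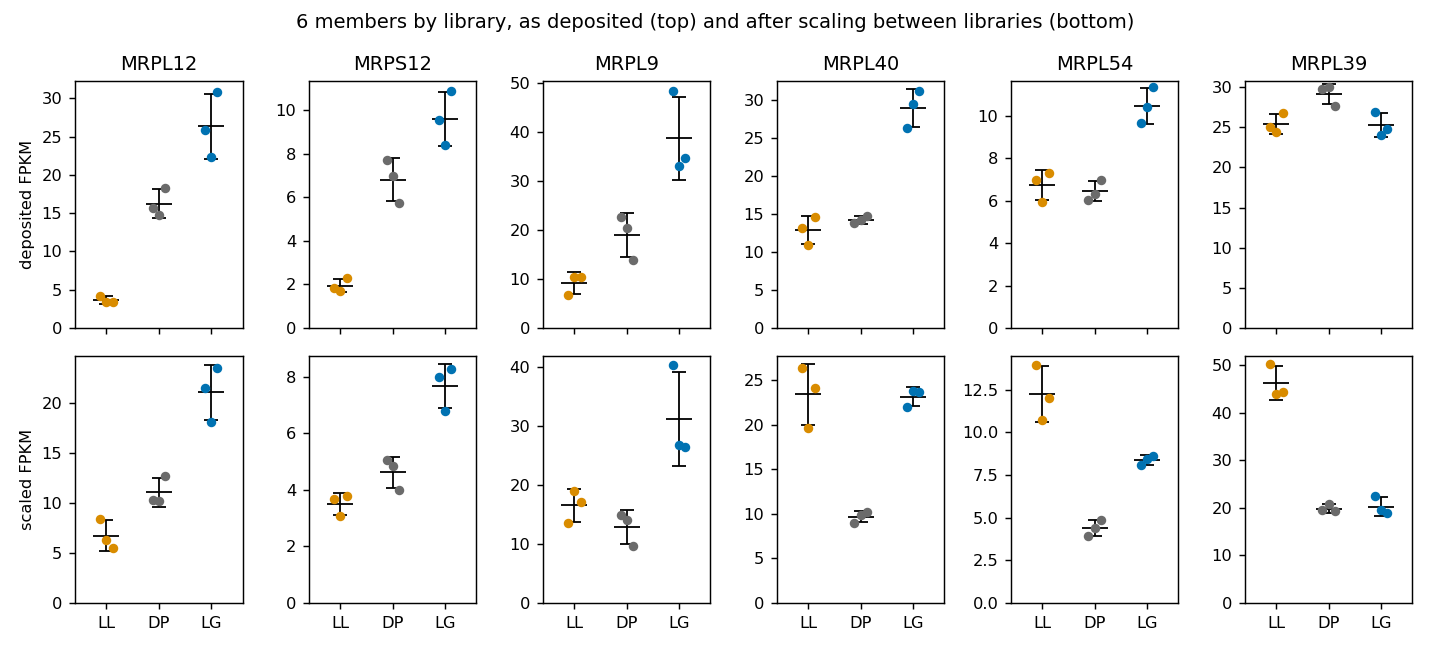
FPKM by stage for MRPL12, MRPS12, MRPL9, MRPL40, MRPL54 and MRPL39, as deposited in the top row and after scaling in the bottom row. Coloured points are libraries, and black bars give the mean and SD of 3 libraries. MRPL39 is level at 24.05 to 30.04 as deposited and highest in LL after scaling, whereas MRPL12 and MRPS12 run LL, DP, LG upward on both scales.

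The place of a member in the table went with its result. The first 22112 rows are followed by 1375 rows in alphabetical order and by 12 rows of common reference genes, among them ACTB, GAPDH and MRPL39. Of all genes tested, 25% of the first rows and 99% of the alphabetical rows were called in at least 1 of the 3 comparisons. The alphabetical rows hold 5 members (MRPL12, MRPL40, MRPL52, MRPL9 and MRPS23), all of which were called in at least 1 comparison, and 57 of the 70 cytosolic genes. Among the 70 members tested in the first rows, 5 were called (MRPL14, MRPL28, MRPL3, MRPL42 and MRPL54), or 7.14%. With the first rows alone, the medians were -0.39, 0.06 and 0.42 over 70 members and -0.54, 0.39 and 0.92 over 13 cytosolic genes. How the rows were ordered is not described in the sources used here.

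For 12 of the 76 members, the deposited values were tied exactly to those of another gene. Each followed a gene next to it or near it on the same strand in a straight line of slope 1, offset by a set of fixed amounts per library. The amounts were 1.0, 1.3 and 1.5 FPKM for LL, 1.0, 1.5 and 1.5 for DP and 1.5, 1.2 and 1.0 for LG, the same by which BAX exceeds FTL in this table. The pairs were MRPL24 with ISG20L2, MRPL28 with TMEM8A, MRPL38 with TRIM65, MRPL48 with PAAF1, MRPL55 with C7H1orf35, MRPS16 with DNAJC9 and MRPS36 with CDK7, where the member exceeded its neighbour by the amounts alone. MRPL33 exceeded SLC4A1AP by the amounts plus 0.35 FPKM and MRPS23 exceeded CUEDC1 by the amounts plus 2.18. MRPL53 lay below CCDC142 and MRPS6 below SLC5A3 by the amounts, and MRPL52 lay below MMP14 by the amounts plus 0.34. Linked values were found for 15.8% of 76 members, 7.14% of 70 cytosolic genes and 9.44% of the 15945 genes searched.

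MRPL52, the highest member by its mean over the 9 libraries, is highest in DP alone. It lies at chr10:79439471-79444419 on the + strand, with deposited FPKM of 5.92, 11.19 and 17.79 for LL, 90.64, 135.74 and 85.20 for DP and 25.40, 25.51 and 28.30 for LG. MMP14 had 7.26, 12.83 and 19.63 for LL, 91.98, 137.58 and 87.04 for DP and 27.24, 27.05 and 29.64 for LG. The 2 series differ by 1.34 to 1.84 FPKM, and the rise of MRPL52 in DP cannot be told apart from that of MMP14, which was 1.62 on the log2 scale (adjusted p = 0.00101). MRPS23 likewise follows CUEDC1, which rose by 1.12 in LG against DP (adjusted p = 0.000667). MRPS16 and MRPL48 jump in single libraries, MRPS16 to 8.62 FPKM in LL2 beside 2.69 and 3.42, and MRPL48 to 13.79 in LG1 beside 4.25 and 3.49, as their neighbours do. Over the 64 members that were not linked, 30 fell and 3 rose in DP against LL with a median of -0.37, 11 rose and 7 fell in LG against LL with a median of 0.11, and 33 rose and none fell in LG against DP with a median of 0.43.

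**Figure D5:**
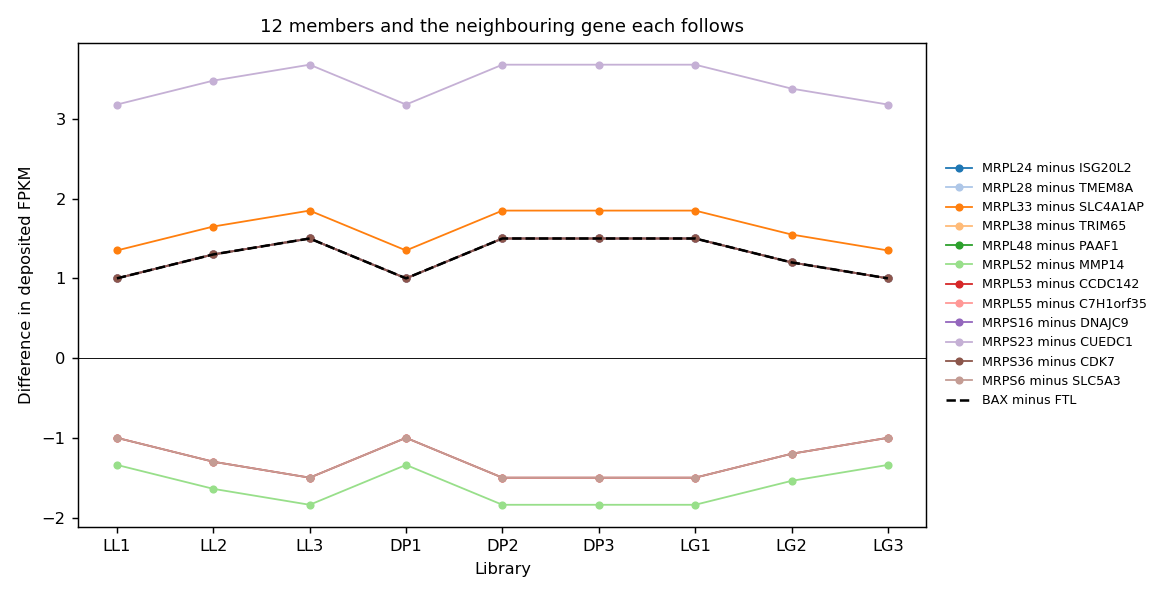
Deposited FPKM of each linked member minus that of its neighbour in the 9 libraries, with the difference of BAX and FTL as a dashed line. The lines of 7 pairs lie on the dashed line at 1.0 to 1.5 FPKM, 2 pairs mirror it below 0, and MRPL33, MRPS23 and MRPL52 run parallel at constant distances. A reader should see that all 12 lines share 1 shape.

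A feature of position in the genome, which the symbols do not give, was more frequent among members than over all genes. For 30 of 77 members, or 39.0%, the start of another gene on the opposite strand lay within 1000 bp upstream, an arrangement in which 2 genes run away from each other. This held for 9.69% of all 23499 genes, 12.9% of the genes tested and 20.0% of the cytosolic genes. The distance had a median of 76.5 bp over the 30. Some partners act in mitochondria themselves. MRPL46 and MRPS11, 1 protein of each subunit, start 25 bp apart and are each other's partner, so both count among the 30. MRPS12 starts 95 bp from SARS2, the mitochondrial seryl-tRNA synthetase, MRPL47 29 bp from NDUFB5 and MRPL36 948 bp from NDUFS6, both subunits of respiratory complex I, and MRPL43 25 bp from C26H10orf2, the mitochondrial DNA helicase twinkle. MRPL49 starts 79 bp from FAU, which encodes a cytosolic ribosomal protein fused to a ubiquitin-like one.

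Partners of such pairs did not always take the same course. MRPS12 and SARS2 both rose in LG against LL, by 0.94 and 0.65 (adjusted p = 0.00358 for SARS2), but the values of SARS2 are linked to another gene. MRPL46 fell in DP against LL (-0.57, adjusted p = 0.00337), whereas its partner MRPS11 did not pass (-0.24, adjusted p = 0.214). MRPL36 rose in LG against LL while NDUFS6 did not pass (-0.26, adjusted p = 0.318), and NDUFS6 fell in DP (-0.95, adjusted p = 0.00387) where MRPL36 did not pass (0.04, adjusted p = 0.772). MRPL49 rose in DP while FAU fell (-0.58, adjusted p = 0.0143). These partners were picked after their values were seen, and the differences within pairs were not tested. In all, 14 members (18.2%, beside 16.5% of all genes) overlap a gene, 2 of them also among the 30, for example MRPL14 with TMEM63B and MRPL9 with OAZ3 on the opposite strand. The library kit does not mark strand, so reads from such overlapping stretches cannot be told apart.

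The rest of the mitochondrial translation machinery gives a frame for the members. Counts for this and the following lists are to be read beside the shares over all genes tested. In DP against LL, 28.2% of all genes rose and 28.6% fell. The shares were 25.6% and 24.6% in LG against LL and 18.4% and 16.4% in LG against DP. Of 5 ribosomal proteins with other names, AURKAIP1 fell in DP against LL (-0.54, adjusted p = 0.0113), GADD45GIP1 rose in LG against LL (0.47, adjusted p = 0.0104) and both rose in LG against DP. DAP3, a GTP-binding protein of the small subunit, PTCD3 and CHCHD1 passed in no comparison. The values of AURKAIP1 and CHCHD1 are linked to those of other genes, as are those of TSFM and ESRRA named further on. The median of the 5 was -0.22, 0.13 and 0.62 in the 3 comparisons. Of 14 translation factors and related genes, 4 fell (MTIF3, SLIRP, OXA1L and MTIF2) and MTFMT rose in DP, and 7 rose in LG against DP. MTIF3, an initiation factor, was lower in DP by a log2 difference of -1.14 (adjusted p = 0.000616). TUFM, the elongation factor that delivers aminoacyl-tRNA, rose in LG against LL (0.49, adjusted p = 0.0352) and against DP (0.85, adjusted p = 0.00437). TSFM and GFM1, the exchange factor for TUFM and the translocase, passed in no comparison, and LRPPRC, which stabilizes mitochondrial mRNAs, rose in LG against DP alone (0.48, adjusted p = 0.0358).

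Assembly factors, which help build the ribosome, had medians above 0 throughout. Of 26 tested, 5 rose and 2 fell in DP against LL with a median of 0.10, 7 rose and none fell in LG against LL, and 3 rose in LG against DP. Over all genes tested, 28.2%, 25.6% and 18.4% rose in these comparisons. RPUSD3, a pseudouridine synthase, rose in DP by 1.82 (adjusted p = 3.12e-05), and NOA1, a GTPase of small-subunit assembly, fell by 0.73 on the log2 scale (adjusted p = 0.0034). RPUSD3 was at 0.0967 FPKM on average in LL, so its difference rests on values near 0 there.

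The 9 genes of mitochondrial DNA upkeep and transcription were divided, with a median of -0.37 in DP against LL. There, 3 rose (TFAM, POLG2 and POLRMT) and 3 fell (SSBP1, MTERF1 and TEFM). In LG against LL, TFAM and POLRMT rose and SSBP1 fell, with a median of 0.05. TFAM, which packages the DNA and starts its transcription, rose by 0.59 in DP (adjusted p = 0.00457) and by 0.67 in LG (adjusted p = 0.00279) against LL. POLRMT, the mitochondrial RNA polymerase, rose by 1.82 (adjusted p = 1.98e-05) and 1.81 (adjusted p = 2.9e-05), from a mean of 0.23 FPKM in LL. Of 13 symbols searched for genes encoded by mitochondrial DNA, only ND1 and ND6 stood in the table. ND6 was at 0 in every library. ND1 was lower in DP (-2.42, adjusted p = 0.000162) and LG (-2.34, adjusted p = 0.000274) than in LL. Its scaled FPKM was 453 to 1083 for LL with a median of 501, 101 to 135 for DP and 111 to 142 for LG. ND1 alone does not show the course of the other genes of mitochondrial DNA. Of 9 genes that act upstream of nuclear-encoded mitochondrial genes, PPRC1 (1.30), NRF1 (1.35) and MYC (0.73) rose and ESRRA (-1.63) and PPARGC1B (-0.38) fell in DP against LL, and PPARGC1A, at 0.13 to 0.41 FPKM on average, was not tested.

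Genes for other parts of mitochondria were taken as a further reference. Of 12 genes of import, porins, chaperones and citrate synthase, 6 fell and VDAC3 rose in DP against LL with a median of -0.48, 2 rose in LG against LL with a median of 0.19, and 8 rose in LG against DP with a median of 0.70. CS, citrate synthase, was lower in DP by a log2 difference of -1.03 (adjusted p = 0.00517), with values linked to another gene in the way described above. Of 10 proteases and prohibitins, 4 fell and HTRA2 rose in DP with a median of -0.34, and 5 rose and SPG7 fell in LG against LL. The 2 genes of the protease that cleaves the MRPL32 precursor differed in direction. AFG3L2 rose in LG against LL (0.71, adjusted p = 0.0191), whereas SPG7 fell in both DP and LG against LL. The medians of the members in the same 3 comparisons were -0.39, 0.09 and 0.42, and the lists were not tested against each other.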

How the data were processed

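RNA of mammary tissue was prepared with a TruSeq RNA v2 kit and sequenced on a HiSeq instrument. Per the labels, the authors used FastQC, Trimmomatic, HISAT2, SAMtools and HTSeq, and the study's methods name StringTie for quantification, while which tool made the table is not stated. The deposited table gives 1 value per gene and library and has no unit in its header. The values were taken for FPKM as deposited by the authors, since most are not whole numbers and library sums differ. The genome build and the number of reads behind a value are not given in the table, so no counting error was computed. Gene identifiers of all 77 members matched the RefSeq table of ARS1.2, and neighbouring genes were found from the coordinates in the deposited table.

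Median-ratio scaling factors from 15905 genes were divided out, and log2 was taken after adding 1. A filter of 0.5 FPKM or more in 3 or more libraries kept 14701 genes. R 4.3.3 and limma 3.58.1 fitted all 9 libraries together without covariates (lmFit and contrasts.fit, then eBayes with trend), with Benjamini-Hochberg adjustment. Genes with an adjusted p under 0.05 are said to rise or fall, and those that also changed by at least 1 on the log2 scale are called. Simulated data were used to test the fit. Python 3.11.15 (pandas 2.3.3, numpy 2.4.6, matplotlib 3.10.9) did the rest. With 3 against 3 goats, an exact permutation test of a single value cannot go below 0.1, so none was used. Linked values were sought among 8 neighbours on each side, with no residual over 1% of the range.

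Members and gene lists were chosen with earlier results of these data known, so no list was tested as a set and lists are given as counts and medians. The genes named are, per comparison, the 8 members with the largest change in each direction among those that passed, the 5 highest and 3 lowest members, a list of members and factors by role, every linked member and every member not tested. NDUFS6, SARS2, FAU and the other neighbours were named after their values were seen. Alternatives were no scaling, quantile normalization, a pseudocount of 0.1, no filter or one of 2 FPKM, only the 2 stages compared, no trend, a replicate block, each library left out, and no linked members. Restriction to the first rows of the table was added after the data were seen. The list of mitochondrial aminoacyl-tRNA synthetases is not reported here.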

Additional observations from a re-analysis of the deposited data

How the results depend on the processing

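Scaling decided the counts most. Without scaling, 22 members were called higher and 0 lower in DP against LL, 44 and 0 in LG against LL, and 0 higher in LG against DP. Of all genes, 54.3% and 2.51%, 45.6% and 2.35%, and 4.86% were called in the same way. The member medians were then 0.83, 1.11 and 0.22 and the cytosolic medians 0.64, 1.64 and 1.04, and members stood 0.18 above cytosolic genes in DP against LL. Quantile normalization called 3 members lower in DP against LL, 0 lower in LG against LL and 3 higher in LG against DP. In DP against LL it gave medians of -0.26 for members and 0.23 for cytosolic genes, a difference of -0.49, and in LG against DP a cytosolic median of 0.29 and a difference of 0.087. A pseudocount of 0.1 called 9 lower in DP against LL and 2 higher in LG against LL. By adjusted p alone, limma passed 4 higher and 36 lower, 12 and 8, and 36 higher in the 3 comparisons. Without linked members, 0 were called higher in DP against LL and 0 lower in LG against DP. The first rows of the table alone, an alternative chosen after seeing the data, gave 0 higher and 3 lower, 0 and 0, and 2 higher and 0 lower. These causes were not tested beyond what each setting leaves out.

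Leaving out 1 library gave 5 to 9 members called lower in DP against LL, with 9 without LL3, and 1 to 2 called higher in LG against LL, with 2 without LG2. Of the named members that passed, 3 of 28 lost the adjusted p in at least 1 such fit in DP against LL (MRPL32, MRPS22 and MRPS6), 7 of 19 in LG against LL (MRPL16, MRPL42, MRPL45, MRPS18A, MRPS22, MRPS23 and MRPS36) and 9 of 27 in LG against DP (MRPL21, MRPL28, MRPL32, MRPL42, MRPL44, MRPL55, MRPL57, MRPS18A and MRPS30). Samples with the same number did not deviate together (correlations of -0.106 to 0.201), so numbers were not taken as pairs. The replicate block left 1 higher and 5 lower, 1 and 1, and 5 and 1, with medians of -0.39, 0.09 and 0.42, and MRPL21 and MRPL55 no longer passed in LG against DP.

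The settings were followed gene by gene only for the 47 members named by the rule, of which MRPL41 was not tested. Over 138 results for these genes and 1928 combinations with a setting, 28 reversed, all without scaling. In DP against LL these were MRPL40 0.14, MRPL39 0.19, MRPL42 0.20, MRPL21 0.32, MRPL14 0.36, MRPL24 0.37, MRPL16 0.37, MRPS18C 0.39, MRPS18A 0.45, MRPL58 0.45, MRPS18B 0.45, MRPL37 0.53, MRPS36 0.59, MRPL18 0.59, MRPL3 0.63, MRPL32 0.67, MRPS6 0.70, MRPL23 0.71, MRPS23 0.78, MRPL55 0.82 and MRPL10 0.84. In LG against LL they were MRPS18C 0.31, MRPS36 0.46, MRPL42 0.52, MRPL21 0.52, MRPL16 0.53, MRPL54 0.57 and MRPS18A 0.68. Another 172 combinations moved across a threshold. Among these, MRPL54 in DP against LL came to -0.05 without scaling (adjusted p = 0.722). Falls of members outside the 47 were not covered, so their absence from these lists does not mean that they held without scaling. For example, deposited means were also higher in DP than in LL for MRPL27 (23.6 against 15.5) and MRPL46 (5.98 against 3.58). Depth is unknown, so what low genes such as MRPL57 could show is limited to an unknown degree.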
